A study of Mus musculus with 12 samples.

Results

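The 10 genes described here belong to the cells that wrap blood vessels, measured in the inguinal fat pad (iWAT) of the mouse. This set of 10 among 33200 gene identifiers in the count table was chosen by name: Acta2, Myh11, Tagln, Cnn1, Mylk and Des stand for the contractile apparatus of vascular smooth muscle, and Rgs5, Pdgfrb, Notch3 and Cspg4 for pericytes. No measured value entered the choice, although earlier results of these data were known when it was made. The series compares wild-type C57BL/6 mice with mice that lack Nrep in the whole body after CRISPR/Cas editing (Nrep-/-, here KO), and asks how transcripts in liver and fat differ with genotype. Animals of both genotypes were 16 weeks old, ate a standard maintenance diet and lived in specific-pathogen-free housing. The iWAT table holds 3 wild-type and 3 KO libraries of poly(A) RNA, which the labels call biological replicates; the 6 liver samples are not analysed here. Since the labels do not say that each library came from a separate animal, the p-values measure the spread between these libraries. Which part of Nrep was edited, the labels do not say.

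Smooth muscle cells surround arteries and veins, and pericytes sit on capillaries inside the basement membrane; together they are called mural cells. Smooth muscle contracts when a rise in calcium leads to activation of myosin light-chain kinase (Mylk), so that smooth muscle myosin (Myh11) pulls on alpha smooth muscle actin (Acta2). Many contractile genes are switched on by serum response factor with its partner myocardin at CArG boxes. Pericytes are recruited by PDGF-B from endothelium through the receptor PDGFR-beta, and Notch3 on mural cells responds to ligands on endothelial neighbours. In fat, part of the perivascular cells that carry PDGFR-beta can also act as adipocyte progenitors.

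The library-wide facts that touch these genes are few. Estimated counts summed to between 17970451 and 20369345 per library, and the members had 73 to 5993 counts each per library, so 1 count was worth at most 0.0556 CPM before scaling. Levels are CPM, counts divided by library size, here scaled with TMM factors, and tests are edgeR's quasi-likelihood F-test over 16656 genes with Benjamini-Hochberg adjustment, read at an adjusted p of 0.05. Nrep itself stood at 74.7, 76.5 and 62.1 CPM in the wild-type libraries (replicates 1 to 3) and at 0.115, 0.0985 and 0.278 CPM in the KO libraries. KO replicate 2 stood apart from the other KO libraries. The 12 adipocyte markers summed to 14860 CPM there, against 23138 and 26762 CPM in KO replicates 1 and 3 and 10729 to 14107 CPM in wild type, and all 12 were detected in every library. The 15 skeletal muscle markers summed to 732 CPM in KO replicate 2, 4395 and 4096 CPM in KO replicates 1 and 3, and 14.5 to 21.2 CPM in wild type. The fits of the members and the counts of the related lists are therefore also given without KO replicate 2.

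The promoters of Acta2 and Rgs5 are shown because Acta2, the most abundant contractile member per kilobase of exon, lay below the wild-type range in KO replicates 1 and 3 and Rgs5, the most abundant pericyte member, lay above it. Each run holds 250 bases before the annotated transcription start and 50 after it, 5′ to 3′ on the gene's strand, from RefSeq on GRCm38.p6. The labels name no single build for the count table. Acta2 lies at chr19:34255324-34255623 on the minus strand and Rgs5 at chr1:169655251-169655550 on the plus strand. Capitals mark CArG-like boxes, a name used here for 10 bases that begin with CC, end with GG and hold at most 1 G or C among the 6 bases between.
Acta2: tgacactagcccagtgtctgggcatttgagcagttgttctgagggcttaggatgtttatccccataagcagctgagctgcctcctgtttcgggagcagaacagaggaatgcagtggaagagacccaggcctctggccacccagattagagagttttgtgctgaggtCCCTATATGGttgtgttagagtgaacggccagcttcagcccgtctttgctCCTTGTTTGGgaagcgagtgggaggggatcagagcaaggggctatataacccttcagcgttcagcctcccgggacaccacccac
Rgs5: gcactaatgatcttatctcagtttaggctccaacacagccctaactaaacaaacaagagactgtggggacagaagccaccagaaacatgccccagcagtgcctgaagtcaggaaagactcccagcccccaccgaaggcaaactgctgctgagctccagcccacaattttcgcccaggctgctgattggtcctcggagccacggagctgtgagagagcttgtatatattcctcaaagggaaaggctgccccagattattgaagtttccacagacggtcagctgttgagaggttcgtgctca
The Acta2 window held 2 such boxes, CCCTATATGG, which starts 84 bases before the annotated start, and CCTTGTTTGG. Where transcription starts in this tissue was not measured, so the distance holds for the annotated start only. A window was found for 7 of the 10 members (Acta2, Cnn1, Mylk, Des, Rgs5, Notch3 and Cspg4), and Acta2 was the 1 of them with a CArG-like box. No window was available for Myh11, Tagln and Pdgfrb, so their promoters were not searched. Of 32841 windows of the same length from all genes, 9.98% held at least 1. The strict CArG box, with no G or C among the 6 middle bases, was in 1.63% of all windows and in 0 of the 7 members; the wider form was added after that was seen. The letters TGGGAA, the core bound by the Notch partner RBPJ, were searched on both strands and found in 25.6% of windows and in 1 member, Acta2, where the match overlaps CCTTGTTTGG. These matches describe the letters in the window.

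None of the 10 genes passed the test between genotypes, where 1.03% of all genes tested did (0.865% higher and 0.162% lower in KO), and the groups overlapped for every member, where 28.3% of all genes tested had no overlap. Des, Rgs5 and Cspg4 had values about 1.4 to 1.5 times as high on average in KO tissue, Acta2, Tagln, Cnn1 and Pdgfrb had lower averages, and Myh11, Mylk and Notch3 had averages close together. At an unadjusted p under 0.05, 3 members were counted, Des, Rgs5 and Cspg4, beside 22.6% of all genes tested. DESeq2 and limma-voom also called 0 of the 10, where they called 10.9% and 0.0961% of genes. The median log2 fold change was -0.01 over the 10 members, -0.12 over the 6 contractile ones, 0.25 over the 4 pericyte ones and -0.06 over all genes tested. In whole tissue, the number of mural cells and the RNA per mural cell cannot be told apart.

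**Figure D1:**
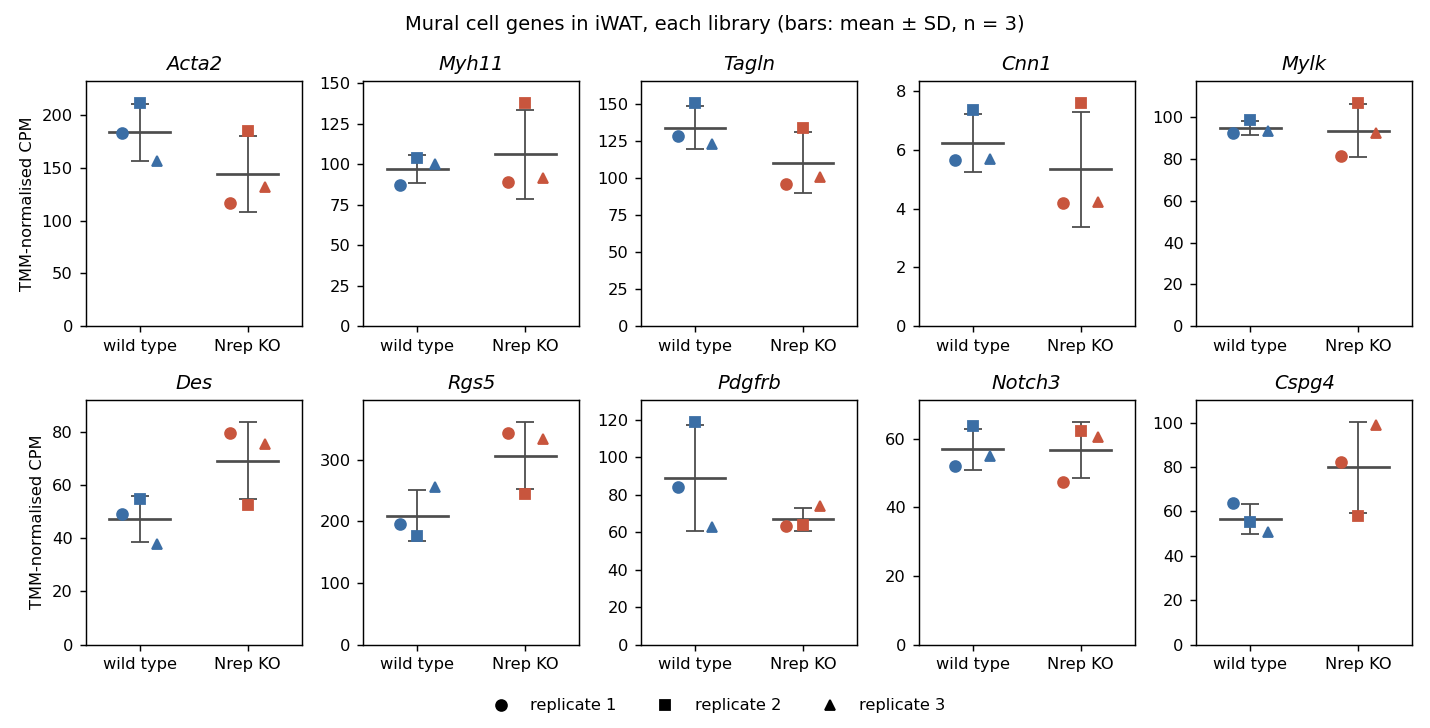
TMM-normalised CPM (vertical axis, from 0) of the 10 mural cell genes in each wild-type (blue) and Nrep KO (red) iWAT library; symbols mark the replicate number, horizontal lines the mean and bars the SD of 3 libraries. Wild-type and KO points overlap in each of the 10 panels.

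Acta2 (ENSMUSG00000035783), which encodes alpha smooth muscle actin, had 182.8, 211.1 and 156.4 CPM across wild-type replicates 1, 2 and 3 and 116.2, 184.5 and 131.6 CPM in KO replicates 1, 2 and 3. KO replicates 1 and 3 lay below all wild-type libraries, while KO replicate 2 lay inside their range. The means were 183.4 ± 27.4 and 144.1 ± 35.8 CPM (SD, n = 3 each), which the fit gave as -0.35 on the log2 scale (SE 0.203, 95% interval -0.82 to 0.12, edgeR adjusted p = 0.336). Tagln (ENSMUSG00000032085), the actin-binding protein transgelin, showed the same order of libraries within KO. It had 128.4, 150.2 and 122.8 CPM across wild-type replicates 1 to 3 and 95.7, 133.5 and 100.8 CPM in KO replicates 1 to 3. Its log2 fold change was -0.28 (SE 0.165, 95% interval -0.66 to 0.10, edgeR adjusted p = 0.337). Cnn1 (ENSMUSG00000001349), the smooth muscle calponin that restrains actomyosin, was the member with the fewest counts. Its counts were 106, 158 and 119 in the wild-type libraries against 73, 154 and 76 in KO replicates 1 to 3, or 5.64, 7.37 and 5.69 CPM against 4.19, 7.59 and 4.22 CPM. Here KO replicate 2 was the highest of the 6 libraries and KO replicates 1 and 3 the lowest (log2 fold change -0.22, 95% interval -0.88 to 0.43, edgeR adjusted p = 0.650).

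Myh11 (ENSMUSG00000018830), the smooth muscle myosin heavy chain, had 87.4, 103.7 and 100.4 CPM across wild-type replicates 1 to 3. The KO libraries had 89.3, 137.6 and 91.2 CPM, so KO replicates 1 and 3 lay inside the wild-type range and KO replicate 2 above it. Its log2 fold change was 0.13 (95% interval -0.31 to 0.56, edgeR adjusted p = 0.698), and it was -0.05 without KO replicate 2. Mylk (ENSMUSG00000022836), the kinase that starts contraction, spread least among the wild-type libraries of these members relative to its mean, at 92.6, 98.9 and 93.3 CPM. KO replicates 1, 2 and 3 had 81.6, 106.7 and 92.6 CPM, on both sides of the wild-type values. The log2 fold change of Mylk was -0.02 (95% interval -0.33 to 0.29, edgeR adjusted p = 0.940), an interval that leaves room for KO levels between 0.798 and 1.22 times those of wild type. With DESeq2's size factors or upper-quartile factors the sign of this value turned, at 0.02 and 0.04.

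Des (ENSMUSG00000026208), the intermediate filament desmin, is made in smooth muscle and pericytes and also in skeletal muscle. It had 49.1, 55.0 and 37.8 CPM across wild-type replicates 1 to 3 and 79.7, 52.6 and 75.7 CPM in KO replicates 1 to 3. KO replicates 1 and 3 lay above all wild-type libraries and KO replicate 2 inside their range, for means of 47.3 ± 8.77 and 69.4 ± 14.6 CPM (SD, n = 3 each). The difference was 1.47-fold (95% interval 1.06 to 2.02, edgeR unadjusted p = 0.0249, adjusted p = 0.159). Within KO, the summed level of the skeletal muscle markers had the same order as Des, at 4395, 732 and 4096 CPM in replicates 1, 2 and 3. In wild-type replicates 1 to 3 this sum was 21.2, 14.5 and 17.3 CPM, an order that differed from that of Des. Of the 14 tested markers 12 rose in KO. That count was 14 without KO replicate 2, 1 in limma-voom and 0 when wild-type replicate 1, wild-type replicate 2, KO replicate 1 or KO replicate 3 was omitted. In wild type, where Ckm, Myh4, Tcap and Pvalb each had 0 counts in at least 1 library, Des was still at 37.8 to 55.0 CPM. The part of muscle RNA in the Des values of the KO libraries was not tested.

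**Figure D2:**
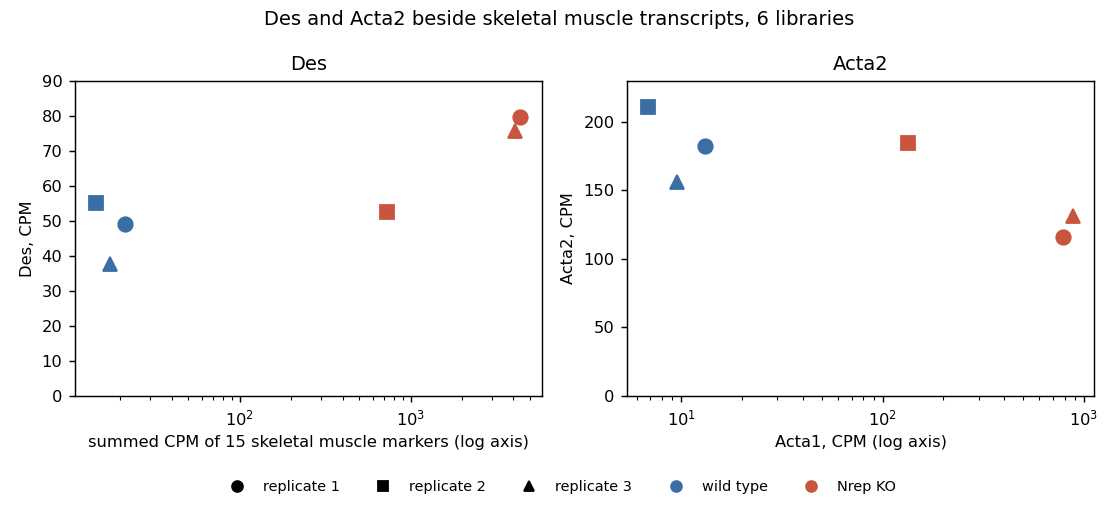
Des CPM against the summed CPM of 15 skeletal muscle markers (left) and Acta2 CPM against Acta1 CPM (right) in the 6 iWAT libraries; horizontal axes are logarithmic, blue is wild type, red is Nrep KO, and symbols mark the replicate number. KO replicates 1 and 3 have the most muscle RNA, the highest Des values and the lowest Acta2 values, and KO replicate 2 has a Des value inside the wild-type range.

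Other actin genes were examined beside Acta2 because reads may be shared between actins. How alike their transcript sequences are was not measured here. Acta1, the skeletal muscle actin, had 13.03, 6.86 and 9.51 CPM across wild-type replicates 1 to 3 and 788.7, 134.3 and 876.7 CPM in KO replicates 1 to 3, and it rose (log2 fold change 5.94, edgeR adjusted p = 0.0326). This call ended with no filter on low counts, and also when wild-type replicate 1, wild-type replicate 2, KO replicate 1 or KO replicate 3 was left out. Actc1, the cardiac actin, had 1.58 ± 0.0453 CPM in wild type and 9.17 ± 5.47 CPM in KO, and Actg2, the enteric smooth muscle actin, 5.52 ± 0.659 and 4.996 ± 1.86 CPM (SD, n = 3 each). Neither passed the test (edgeR adjusted p = 0.0547 and 0.782), but Actc1 passed in 5 of 16 alternative fits: DESeq2, upper-quartile factors, no filter, a replicate block and without KO replicate 2. Within KO, Acta2 was highest in replicate 2, where Acta1 was lowest. All 60 member values in the table were exactly whole numbers, Acta2 included, while Acta1 had 5 exactly whole values of 6 and the cytoplasmic actin Actg1 had 0. The labels do not say how reads shared between actins were assigned, and the Acta2 and Acta1 values are uncertain to that extent.

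Rgs5 (ENSMUSG00000026678), a regulator of G protein signalling that marks pericytes, had 195.3, 176.8 and 256.3 CPM across wild-type replicates 1 to 3. The KO libraries had 343.7, 244.0 and 333.0 CPM. KO replicates 1 and 3 were the highest of the 6 libraries, and KO replicate 2 lay just below wild-type replicate 3. The means were 209.5 ± 41.6 and 306.9 ± 54.7 CPM (SD, n = 3 each), a 1.47-fold difference (95% interval 1.06 to 2.02, edgeR unadjusted p = 0.0255, adjusted p = 0.160). Cspg4 (ENSMUSG00000032911), the pericyte surface proteoglycan NG2, had 63.8, 55.2 and 50.5 CPM across wild-type replicates 1 to 3 and 82.1, 58.1 and 99.1 CPM in KO replicates 1 to 3. Again KO replicates 1 and 3 lay above the wild-type range and KO replicate 2 inside it, with a fold of 1.41 (95% interval 1.02 to 1.94, edgeR unadjusted p = 0.0383, adjusted p = 0.193).

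Pdgfrb (ENSMUSG00000024620), the receptor for PDGF-B, did not follow Rgs5 and Cspg4. It had 84.3, 119.0 and 62.9 CPM across wild-type replicates 1 to 3 and 63.2, 63.6 and 73.9 CPM in KO replicates 1 to 3. The spread lay in wild type: the lowest value of all 6 was wild-type replicate 3 and the highest wild-type replicate 2. Its log2 fold change of -0.41 (SE 0.222, 95% interval -0.92 to 0.11, edgeR adjusted p = 0.309) was -0.14 without wild-type replicate 2 and -0.60 without wild-type replicate 3. The 12 markers of fibroblasts and adipocyte progenitors, cells that can share this receptor, summed to 5818, 6624 and 5553 CPM in wild type and 4467, 3446 and 6164 CPM in KO replicates 1 to 3. None of the 12 passed the edgeR test, while 5 had an unadjusted p under 0.05, beside 22.6% of all genes tested. DESeq2 called 3 of the 12 lower, where it called 3.60% of all genes lower. Whether those cells account for part of the Pdgfrb values was not tested. Notch3 (ENSMUSG00000038146), the Notch receptor of mural cells, had 52.1, 63.7 and 55.0 CPM across wild-type replicates 1 to 3 and 47.5, 62.5 and 60.6 CPM in KO replicates 1 to 3. Its means, 56.9 ± 6.02 and 56.9 ± 8.13 CPM (SD, n = 3 each), lay together (95% interval of the log2 fold change -0.34 to 0.33, edgeR adjusted p = 0.996), and the sign of its log2 fold change was not fixed across scalings.

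**Figure D3:**
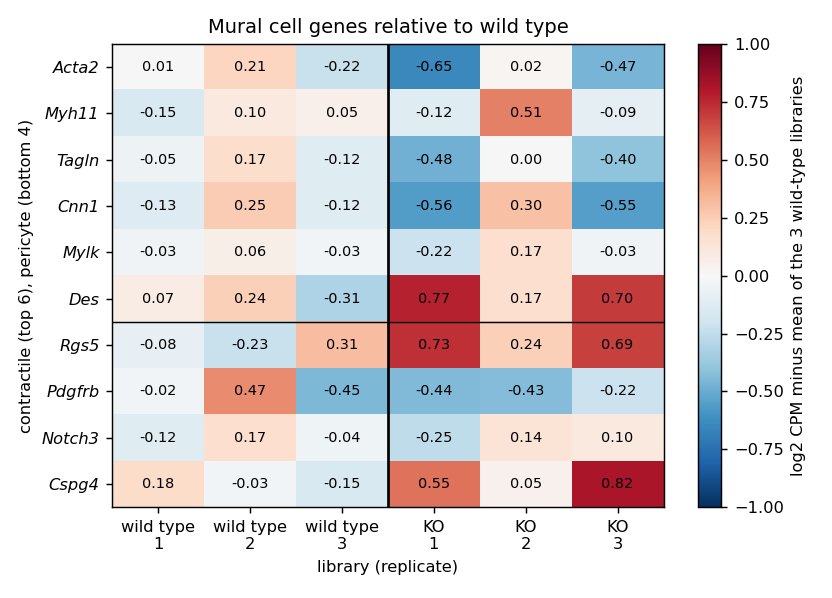
Log2 CPM of each mural cell gene in each iWAT library minus the mean of the 3 wild-type libraries (colour and printed value); contractile genes are above the horizontal line and pericyte genes below it. KO replicates 1 and 3 run from -0.65 (Acta2 in KO replicate 1) to 0.82 (Cspg4 in KO replicate 3), and KO replicate 2 has 0.02 for Acta2, 0.24 for Rgs5 and 0.51 for Myh11.

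In KO replicates 1 and 3 together, 6 of the 10 members lay outside the wild-type range on 1 side, a share close to the 59.1% of all genes tested. Above it were Des, Rgs5 and Cspg4, and below it Acta2, Tagln and Cnn1, while Myh11, Mylk, Pdgfrb and Notch3 did neither. KO replicate 2 was within the wild-type range for 7 of the 10, against 42.3% of genes. The summed level of the 6 contractile members divided by that of the 4 pericyte members was 1.38, 1.51 and 1.22 in wild-type replicates 1 to 3 and 0.870, 1.45 and 0.876 in KO replicates 1 to 3. KO replicates 1 and 3 were thus below wild type in this ratio and KO replicate 2 inside its range. Rgs5 weighed most in the pericyte sum, at 343.7 and 333.0 CPM of 536.5 and 566.6 CPM in KO replicates 1 and 3. The ratio therefore does not describe each member: Des, a contractile member, lay above the wild-type range in these 2 libraries, and Pdgfrb and Notch3 did not. Without KO replicate 2, 4 of the 10 members passed edgeR's test, 3 higher (Des, Rgs5 and Cspg4) and 1 lower (Acta2), where 25.3% of all genes passed, 14.5% higher and 10.9% lower. The log2 fold changes were then 0.77 for Des (adjusted p = 0.0151), 0.75 for Rgs5 (adjusted p = 0.0177), 0.74 for Cspg4 (adjusted p = 0.0114) and -0.51 for Acta2 (adjusted p = 0.0471). Tagln had -0.39 (adjusted p = 0.0614) and Cnn1 -0.51 (adjusted p = 0.125) in that fit.

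**Figure D4:**
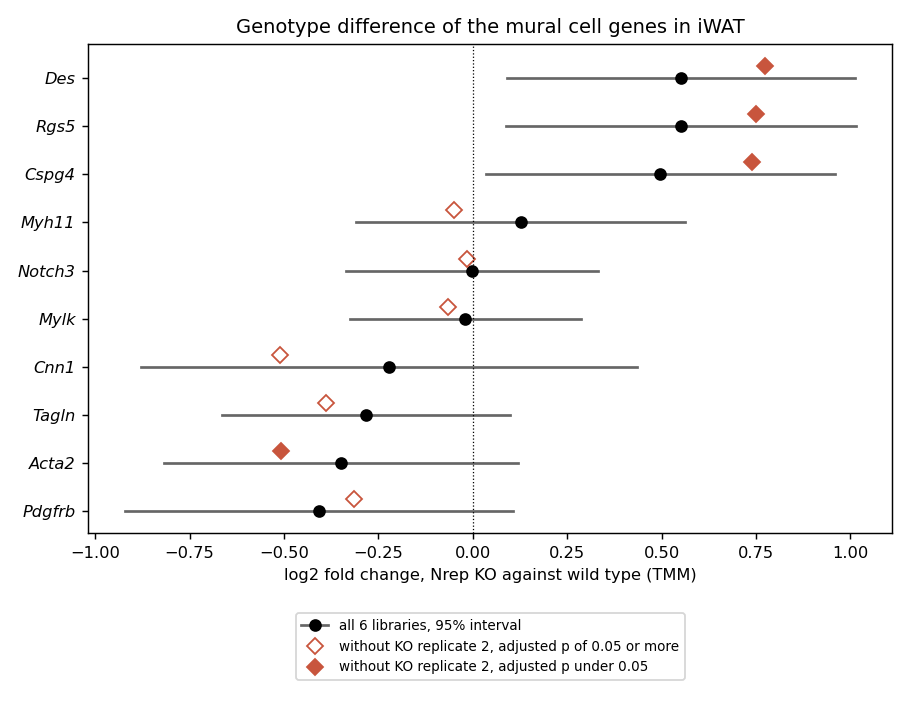
Log2 fold change of KO against wild type for the 10 mural cell genes from all 6 libraries (black points, lines are 95% intervals) and from the fit without KO replicate 2 (diamonds, filled where the adjusted p is under 0.05). With all libraries 0 genes pass, although the intervals of Des, Rgs5 and Cspg4 lie above 0 before adjustment; without KO replicate 2, Des, Rgs5, Cspg4 and Acta2 pass.

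Ratios of 2 members within a library do not depend on how libraries are scaled, so all 45 pairs were formed. Of these, 9 had no overlap between genotypes, or 6 of 15 pairs within the contractile genes, 2 of 24 between contractile and pericyte genes and 1 of 6 within the pericyte genes. Over all pairs of tested genes with counts in every library, 28.3% had no overlap, so the members did not exceed that share as a whole. The pairs share genes and are not independent. Acta2 relative to Myh11 was 2.09, 2.04 and 1.56 in wild-type replicates 1 to 3 and 1.30, 1.34 and 1.44 in KO replicates 1 to 3. Myosin relative to calponin, Myh11 to Cnn1, was 15.5, 14.1 and 17.7 in wild type and 21.3, 18.1 and 21.6 in KO. The ratios named here come from the 9 pairs without overlap, so KO replicate 2 had to lie on the side of the other KO libraries. For Myh11 to Cnn1 its margin was small. In KO replicate 2, Acta2 lay inside the wild-type range and Myh11 above it. In KO replicates 1 and 3, Acta2 lay below that range and Myh11 inside it. Pdgfrb relative to Cspg4 was 1.32, 2.15 and 1.24 in wild type and 0.770, 1.09 and 0.745 in KO.

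Levels of different genes were set side by side per kilobase of annotated exons (GENCODE M21, which may differ from the annotation behind the counts). Acta2 at 83.5 and Tagln at 67.3 CPM per kilobase were the highest in wild type and overlapped in range. Rgs5 followed at 46.1, clear of both neighbours in the order. Pdgfrb at 16.2, Myh11 at 12.8 and Des at 12.6 CPM per kilobase overlapped, and Mylk at 8.43, Notch3 at 7.04, Cspg4 at 4.74 and Cnn1 at 2.28 followed without overlap between neighbours. In KO, Rgs5 stood first at 67.5, ahead of Acta2 at 65.6 and Tagln at 55.3 CPM per kilobase, with overlapping ranges. Des at 18.5 was ahead of Myh11 at 14.0, again with overlap.

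Genes around the members were taken from lists that were written with earlier results of these data known. Counts of these lists at an unadjusted p under 0.05 stand beside the share over all genes tested, 22.6%. Of 22 further smooth muscle genes 1 rose and 0 fell, which left 21 that did not pass. The gene that rose was Pdlim3, a PDZ-LIM protein of the Z-disc that is also made in skeletal muscle, with 2.82, 4.25 and 4.40 CPM across wild-type replicates 1 to 3 and 18.6, 8.42 and 18.8 CPM in KO replicates 1 to 3 (log2 fold change 1.99, edgeR adjusted p = 0.0476). Like the summed muscle markers, it was lowest among KO libraries in KO replicate 2; the share of muscle RNA in it was not tested. In all, 7 of the 22 had an unadjusted p under 0.05, each with a positive log2 fold change. Besides Pdlim3 these included Ldb3 (2.47), Tpm2 (2.17), Tpm1 (1.49), Casq2 (1.46) and Smtn (0.51), named after their values were seen, with edgeR adjusted p-values of 0.0578 to 0.0863. Each of these 5 passed without KO replicate 2, and each passed in DESeq2. Ldb3, Tpm1, Tpm2 and Casq2 are also genes of striated muscle. Smtn, smoothelin of contractile smooth muscle, had 32.9, 34.8 and 36.9 CPM in wild type and 45.3, 45.7 and 58.1 CPM in KO, with no overlap. Smtn and Casq2 also passed with no filter. Of 20 further pericyte genes 0 passed in edgeR and 2 had an unadjusted p under 0.05. The most abundant of them, Steap4, a metalloreductase, and Postn, the matrix protein periostin, had edgeR adjusted p-values of 0.520 and 0.765. The 2 with unadjusted p under 0.05, named after their values were seen, were Ndufa4l2 at 6.59 ± 0.837 and 13.2 ± 1.79 CPM and Art3 at 101.8 ± 26.8 and 207.5 ± 56.3 CPM (SD, n = 3 each; edgeR adjusted p = 0.0513 and 0.0798). Ndufa4l2 passed in 7 of 16 alternative fits and Art3 in 4, the fit without KO replicate 2 among them. The median log2 fold changes of these lists were 0.14 and 0.12, beside -0.06 over all genes.

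The machinery that regulates contraction showed 0 calls. None of 16 genes of myosin light-chain phosphorylation passed in edgeR, and 0 had an unadjusted p under 0.05; Myl6, a myosin light chain and the most abundant of them, had a log2 fold change of 0.12 (edgeR adjusted p = 0.648). Among 10 regulators around serum response factor and myocardin, 0 passed in edgeR and 2 had an unadjusted p under 0.05. The most abundant were Tead1 and Klf4, transcription factors with log2 fold changes of 0.22 and -0.21 (edgeR adjusted p = 0.713 and 0.626). Of 12 broadly expressed serum response factor targets 10 had negative log2 fold changes and 0 passed in edgeR, with 5 at an unadjusted p under 0.05 and a median of -0.37. Its most abundant members, the cytoplasmic actins Actb and Actg1, had values of -0.46 and -0.29 (edgeR adjusted p = 0.288 and 0.389). The 15 genes of the vascular basement membrane had 0 calls in edgeR, 3 genes at an unadjusted p under 0.05 and a median of -0.01 on the log2 scale. Col4a1, a collagen chain, and Nid1, nidogen, had values of -0.34 and 0.05 (edgeR adjusted p = 0.449 and 0.918).

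Of the lists of signalling genes, receptors and channels, Notch signalling held 1 called gene and vasoactive receptors and channels held 1. Dll4, a Notch ligand of endothelial cells, rose from 11.2, 12.9 and 10.99 CPM across wild-type replicates 1 to 3 to 22.1, 21.1 and 29.9 CPM in KO replicates 1 to 3, with no overlap (2.08-fold, log2 fold change 1.06, SE 0.171, edgeR adjusted p = 0.0458). It was the 1 of 16 Notch signalling genes past the test, and none fell. Of the 16, 10 had positive and 6 negative log2 fold changes, and besides Dll4 5 had an unadjusted p under 0.05 without passing in edgeR. These 5, named after their values were seen, were the receptor Notch4 (log2 fold change 1.02, adjusted p = 0.0547), the targets Hey1 (0.90, adjusted p = 0.0561) and Hes1 (0.57, adjusted p = 0.101), the ligand Jag2 (0.66, adjusted p = 0.0834) and, in the other direction, Rbpj, the DNA-binding partner of Notch (-0.54, adjusted p = 0.0839). Notch4 and Hey1 passed in DESeq2, with upper-quartile factors, with no filter, with a replicate block and without KO replicate 2. Jag2 passed in those fits except that with upper-quartile factors, Hes1 in DESeq2 and without KO replicate 2, and Rbpj in DESeq2 and with no filter. Of 10 PDGF signalling genes 0 passed in edgeR and 3 had an unadjusted p under 0.05. The most abundant of them, Pik3r1 and Ptpn11, which signal below the receptor, had log2 fold changes of 0.30 and 0.24 (edgeR adjusted p = 0.442 and 0.317). The 3 with an unadjusted p under 0.05, named after their values were seen, went both ways. Pdgfb, the ligand of Pdgfrb, had 32.3, 30.5 and 32.6 CPM in wild type and 51.4, 40.5 and 58.5 CPM in KO, without overlap (log2 fold change 0.66, edgeR adjusted p = 0.0665). Plcg1, a phospholipase below the receptor, had 0.34 and Pdgfra, the sister receptor, -0.51 (edgeR adjusted p = 0.187 and 0.178). Pdgfb passed in DESeq2, with no filter, with a replicate block and without KO replicate 2. Kcna5, a voltage-gated potassium channel of vascular smooth muscle, rose as 1 of 17 tested vasoactive receptors and channels, none of which fell. It had 12.5, 12.9 and 15.1 CPM across wild-type replicates 1 to 3 and 24.7, 23.0 and 33.7 CPM in KO replicates 1 to 3 (2.01-fold, edgeR adjusted p = 0.0494). Of the 17, 11 had negative log2 fold changes and 6 an unadjusted p under 0.05, with a median of -0.07. Genotypes did not overlap for 5 genes lower in KO and 2 higher, where 28.3% of all genes tested had no overlap. DESeq2 called 2 of the 17 higher and 1 lower, where it called 7.34% of all genes higher and 3.60% lower. The Pdlim3, Dll4 and Kcna5 calls each ended in limma-voom and when any library except KO replicate 2 was left out; Kcna5 also missed with library totals alone (adjusted p = 0.0556).

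Without KO replicate 2 the related lists except myosin phosphorylation held more calls, as did all genes (25.3%). Smooth muscle genes then had 8 higher and 0 lower, pericyte genes 4 and 0, Notch signalling 7 and 3, PDGF signalling 4 and 1, and vasoactive receptors and channels 3 and 2. Broad serum response factor targets had 2 higher and 4 lower, regulators of serum response factor 2 and 1, basement membrane 3 and 0, and myosin phosphorylation 0 and 0. Among the most abundant genes named above, Actb (-0.63), Pik3r1 (0.55) and Ptpn11 (0.38) passed in that fit. Endothelial markers had 6 higher and 0 lower.

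**Figure D5:**
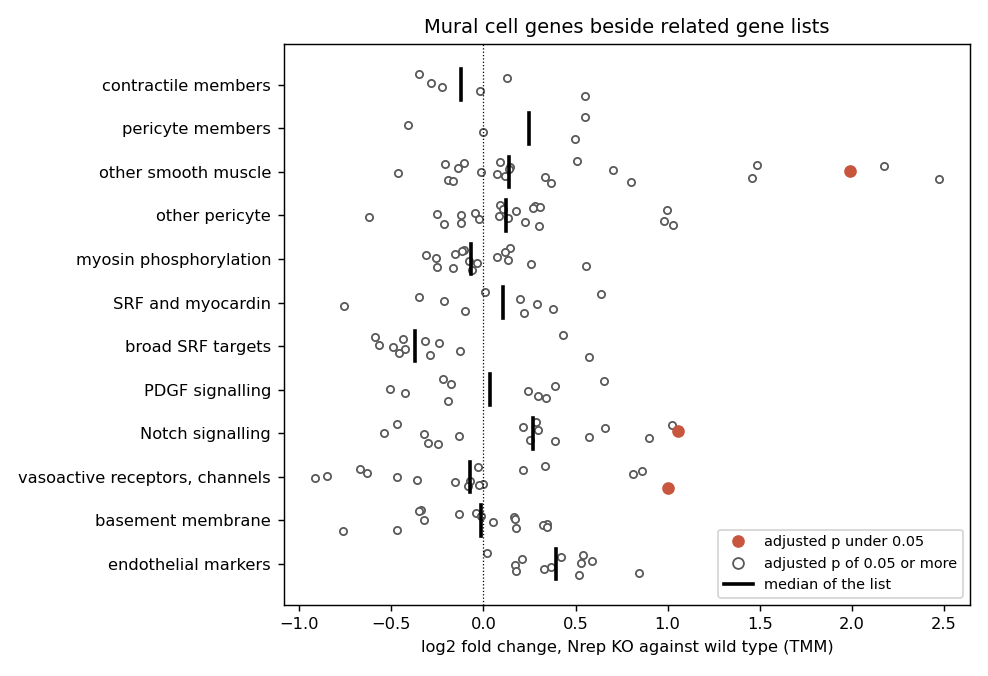
Log2 fold changes of KO against wild type in iWAT for the members and for related gene lists; each point is a gene, filled red where edgeR's adjusted p is under 0.05, and vertical bars are list medians. The red points are Pdlim3, Dll4 and Kcna5; the medians run from -0.37 for broad serum response factor targets to 0.39 for endothelial markers.

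The 12 endothelial markers had positive log2 fold changes throughout, with a median of 0.39, 0 calls in edgeR and 7 at an unadjusted p under 0.05. Their summed level was 1206, 1328 and 1368 CPM across wild-type replicates 1 to 3 and 1547, 1558 and 1896 CPM in KO replicates 1 to 3, with no overlap, and KO replicate 2 was close to KO replicate 1. Of the pericyte members, Rgs5 and Cspg4 were lowest among KO libraries in KO replicate 2, while Notch3 was highest there. Pdgfrb in KO replicate 2 lay between KO replicates 1 and 3. Dll4, the Notch ligand of endothelial cells, was also lowest among KO libraries in KO replicate 2. Of 12 adipocyte markers 1 rose, Slc2a4, the glucose transporter, and of 7 Schwann cell markers 1 rose, Prx, periaxin (edgeR adjusted p = 0.0435 and 0.0499). Both calls ended in limma-voom, and each ended in the fits that left out any library other than wild-type replicate 3 and KO replicate 2. Prx also missed with library totals alone. All 12 adipocyte markers had positive log2 fold changes, with a median of 0.81 and 10 at an unadjusted p under 0.05. DESeq2 called 10 of the 12 higher, as did the fit without KO replicate 2, beside 7.34% and 14.5% of all genes higher. The limma-voom fit called 0 of the 12. The 7 Schwann cell markers were also all positive, with a median of 0.40 and 2 at an unadjusted p under 0.05. The 8 macrophage markers had 0 calls in edgeR and 6 at an unadjusted p under 0.05, with a median log2 fold change of -0.53. Over all genes tested, 22.6% had an unadjusted p under 0.05. DESeq2 called 3 macrophage markers lower and 4 endothelial markers higher, where it called 3.60% of all genes lower and 7.34% higher. In limma-voom 0 were called in both lists. Myoepithelial cells of the mammary gland can also make Acta2; the 8 epithelial and myoepithelial markers summed to 8.30 to 14.97 CPM over the 6 libraries, with Krt14, Krt5 and Krt17 at 0 counts in at least 1 library. The 6 cardiac markers in the table summed to 3.46 to 16.3 CPM and the 5 mesothelial ones to 2.66 to 5.17 CPM. The part of shifts between cell types in the values of the members was not tested.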

How the data were processed

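Estimated counts per Ensembl gene were deposited by the authors in 1 table with 6 iWAT columns, 1 per library and unscaled; per library, 9.53% to 11.1% of the values were not whole. Libraries were made with a stranded poly(A) kit, per the labels' protocols. The submitters' processing notes name fastp and featureCounts, and GRCm38 beside GRCm39 as builds, without saying which apply to iWAT; the quantifier is not stated. Counts were rounded. Symbols from GENCODE M21 matched 26372 of 33200 identifiers (79.4%); where identifiers shared a symbol, the one with the most counts was used. No 2 libraries held identical values.

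The test was edgeR 4.0.16 (R 4.3.3; TMM, filterByExpr, robust quasi-likelihood, no covariate, two-sided). The SE is the log2 fold change over the square root of F, and intervals use the matching t quantile. Alternatives used DESeq2 1.42.0, limma 3.58.1 (voom), other size factors and filters, a block on replicate number, and the omission of 1 library at a time. The tests were checked on simulated counts. No set test was run.

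The members, lists and naming rule were chosen with earlier results of these data known. The rule names all members and, per related list, up to 4 called genes or the 2 most abundant where none was called; some genes of these lists are not reported here. Marker lists of other cell types are given by counts and summed levels. Totals per library are given with the results; the worth of 1 count covers counting error only.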

Additional observations from a re-analysis of the deposited data

How the results depend on the processing

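The members' count of 0 held in all alternatives except the fit without KO replicate 2 (0 to 4 when 1 library was left out). Des, Rgs5, Cspg4, Acta2, Tagln, Cnn1 and Pdgfrb kept their sign in all 16 alternatives; over these, log2 fold changes ran from 0.40 to 0.77 for Des, 0.40 to 0.75 for Rgs5, 0.31 to 0.74 for Cspg4, -0.51 to -0.22 for Acta2, -0.41 to -0.19 for Tagln, -0.51 to -0.08 for Cnn1 and -0.60 to -0.14 for Pdgfrb. Adjusted p-values over the alternatives ran from 0.0151 to 0.424 for Des, 0.0177 to 0.428 for Rgs5, 0.0114 to 0.463 for Cspg4 and 0.0471 to 0.663 for Acta2. Scaling by library totals alone shifted the median over all genes by -0.13 (log2) and gave 129 higher and 49 lower calls, where TMM gave 144 and 27.

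The count of all genes past the test, 171, was 1823 in DESeq2, 16 in limma-voom, 1370 with no filter and 1 to 4221 when 1 library was left out. Some values that did not pass the test changed sign. Mylk became 0.0169 in DESeq2, 0.0167 with RLE size factors and 0.0421 with upper-quartile factors. Notch3 became 0.0359 in DESeq2, 0.0359 with RLE size factors, 0.0614 with upper-quartile factors and 0.0028 with no filter. With library totals alone Myl6 became -0.0227 and Nid1 -0.106, and Nid1 was -0.0037 in limma-voom. Leaving out 1 library at a time gave log2 fold changes on both sides of 0: -0.0484 (KO replicate 2 left out) to 0.236 for Myh11, -0.0666 to 0.0705 (KO replicate 1) for Mylk, -0.0613 to 0.112 (KO replicate 1) for Notch3, -0.0023 (KO replicate 3) to 0.426 for Steap4, -0.313 to 0.162 (KO replicate 2) for Postn, -0.232 (KO replicate 3) to 0.592 for Tead1, -0.432 to 0.0543 (KO replicate 2) for Klf4, -0.219 (KO replicate 3) to 0.345 for Nid1 and -0.433 to 0.0097 (KO replicate 1) for Actg2. The causes were not tested.

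Same-numbered libraries had correlations of deviations from their group means of -0.0077, 0.196 and 0.105, and not every library correlated best with its own number, so the numbers were not taken as pairs. A replicate block gave 1225 calls among all genes (7.35%) and 0 among the members, and turned Nid1 to -0.0094. Each member had at least 73 counts in each library, and 3 libraries per group limit the precision of the intervals.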

Other observations

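The genes whose pattern over the 6 libraries was nearest to 2 of the members were ranked by the root mean square difference of centred log2(CPM + 0.5) among 10064 named genes with a mean of at least 10 CPM. Nearest to Acta2 were Reep4, Atf6b, Slc15a4, Dchs1 and Tnip1, with differences of 0.0279 to 0.0632. Tagln, at 0.0823, would have ranked 26 and Cnn1, at 0.124, would have ranked 200 in that order, while Myh11, at 0.272, would have ranked 3220. Nearest to Rgs5 were Txnrd3, Scrn3, Megf9, Clic5 and Ganc, with differences of 0.0441 to 0.0701. Cspg4, at 0.258, would have ranked 1868 and Des, at 0.320, 3089, and Pdgfrb, at 0.636, 8631. The measure uses 6 libraries that share the contrast between KO replicate 2 and the other KO libraries. It is a description with no test.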
